A study of Mus musculus with 8 samples.

Results

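The regions described here are the 1947 stretches of the mouse genome where every one of 8 ChIP-exo libraries, for different antibodies, cell types and genotypes, had a called binding site. They were chosen by pooling the 284230 deposited sites, chaining sites on a chromosome that lay at most 250 bp from the next one, and keeping each chain with a site of all 8 libraries. This left 1947 of 165946 regions, or 1.17% of them. Their presence in all lists is therefore the rule and not a finding, and the account below concerns where they lie, how they rank, what sequence they hold and how they differ from other regions.

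The study mapped the transcription factors E2f3 and Myc in crypt cells and villus cells of the intestine from mice of a mixed C57BL/6, 129 and FVB/N background. The groups were Rb KO crypt, Rb KO villus, wild type crypt and wild type villus cells, each with an E2f3 antibody (Santa Cruz sc-878 X) and a Myc antibody (Santa Cruz sc-764 X), and each of the 8 combinations had 1 library. Rb was deleted with Ah-cre, an inducible Cre recombinase used for the intestine, and the labels give this text for the wild type libraries too. Whether wild type mice also carried or received the Cre and its inducer, how old the mice were and how many were used is not stated in the labels. Per the file names each list came from merged data, and what was merged is not stated. Site lists hold no expression, so cell type and genotype could not be checked, and the comparison has no library from input DNA or a control antibody. With 1 library per group no difference between groups has a replicate check. No group was tested against another, and the exact 95% binomial (Clopper-Pearson) intervals given below cover counting error only.

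E2F factors bind a GC-rich motif near the start sites of genes for DNA replication and the cell cycle, and Rb restrains them. Myc pairs with Max on the E-box CACGTG, often also near start sites. In ChIP-exo, DNA crosslinked to a protein is precipitated, adapters are ligated to it, an exonuclease digests each strand up to the crosslink, and a primer that anneals to a ligated adapter is extended before sequencing.

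The sequence of the 8-library regions is shown first because most of them held parts of the same 12-base sequence, CAGACGTGTGCT, upstream of the sites and pointing at them. Each line below gives a stretch of the mm9 assembly on the strand on which the sequence points at the sites, 5′ to 3′, with the bases that match the end of the consensus in capitals. The first 5 are the 8-library regions with a match to all 12 bases that ranked highest in their lists. The last is the highest-ranked one with a match of 8 bases. The consensus came from the data as described further below.
Smyd3 intron, chr1:181282470-181282587, minus strand: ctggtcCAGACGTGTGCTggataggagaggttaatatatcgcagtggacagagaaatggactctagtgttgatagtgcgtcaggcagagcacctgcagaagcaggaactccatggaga
Between genes, nearest start Acot10, chr15:20531414-20531531, minus strand: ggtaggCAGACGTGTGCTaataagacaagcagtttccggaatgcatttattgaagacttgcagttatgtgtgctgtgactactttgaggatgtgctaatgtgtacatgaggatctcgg
Between genes, nearest start Gpc5, chr14:115456549-115456666, plus strand: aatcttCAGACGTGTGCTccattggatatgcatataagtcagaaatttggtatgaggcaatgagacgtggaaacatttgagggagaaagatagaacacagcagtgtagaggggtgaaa
Arid1b intron, chr17:5045797-5045914, plus strand: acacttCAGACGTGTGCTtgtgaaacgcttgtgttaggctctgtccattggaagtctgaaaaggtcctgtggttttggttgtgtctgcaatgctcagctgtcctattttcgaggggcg
Between genes, nearest start Gm3662, chr8:102567548-102567665, minus strand: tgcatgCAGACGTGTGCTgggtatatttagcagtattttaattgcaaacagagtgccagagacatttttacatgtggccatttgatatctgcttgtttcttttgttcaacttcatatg
Between genes, nearest start Pla2g4a, chr1:150981843-150981956, minus strand: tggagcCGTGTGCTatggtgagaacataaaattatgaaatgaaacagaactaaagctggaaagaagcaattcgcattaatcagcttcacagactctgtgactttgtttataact
The best sites of the 8 libraries follow the capitals, as the definition of a match implies, and in 4 of the 6 some lie beyond the end of the stretch shown. In the Smyd3 intron, for example, the best site of each library lay between 64 and 92 bases after the last capital.

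For contrast, the line below shows a gene-start region with an E2F motif that shared the top rank among the 649 regions that all 4 E2f3 libraries and no Myc library shared. It lies 63 bp from a start of Srsf1, which encodes a splicing factor. Capitals mark the E2F motif.
Srsf1 start, chr11:87860762-87860862, plus strand: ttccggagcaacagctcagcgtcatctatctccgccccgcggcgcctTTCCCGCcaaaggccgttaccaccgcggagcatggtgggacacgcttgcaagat
Its scores were 999 in the Rb KO crypt, 999 in the Rb KO villus, 999 in the wild type crypt and 199 in the wild type villus E2f3 list, where 999 is the highest score in the lists. The score is the authors' own value, its meaning is not given, and it was used only to rank sites within a list.

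The 8-library regions lay away from gene starts. Of 1947, 64 had a site within 1 kb of a start of a protein-coding gene, which is 3.29% (2.54% to 4.18%). The share was 3.43% (2.68% to 4.31%) in 7-library regions and 6.71% in all regions. In regions of the 4 E2f3 libraries alone it was 472 of 649 (72.7%, 69.1% to 76.1%). The median distance of the 8-library regions to a protein-coding start was 38.3 kb, against 34.6 kb over all regions. Of the 1920 on the reference chromosomes, 985 (51.3%) were centred between genes, 882 (45.9%) in introns, 26 in UTRs and 17 in coding exons. Over all regions 51.7% lay between genes and 44.3% in introns. On the reference chromosomes, apart from gene starts, the places were thus close to those of the whole pool. The remaining 27 of 1947 members lay on sequences outside the reference chromosomes and received no gene or sequence. Over the pool 380 of 165946 regions lay there, a smaller share than among the members. Of these, 26 lay on Un_random, which holds unplaced contigs.

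Neither factor's motif was more frequent in them than in the pool. An E2F motif (TTNNCGC with C or G at each N, on either strand, within 100 bp of the centre) was present in 19 of 1920, or 0.99% (0.597% to 1.54%). The share was 2.48% in all regions and 482 of 645 (74.7%, 71.2% to 78.0%) in the regions of the 4 E2f3 libraries alone. The E-box CACGTG was present in 83 (4.32%, 3.46% to 5.33%), against 4.43% of all regions. Other searched motifs were also near or below the pool. The CTCF letters CCANNAGGG were in 35 members (1.82%, against 2.19% of all regions), AP-1 TGANTCA in 120 (6.25%, against 6.52%), SP/KLF GGGCGG in 25 (1.30%, against 4.23%), YY1 AAGATGGC in 25 (1.30%, against 1.33%), CDX TTTATGG in 51 (2.66%, against 3.17%), HNF4 CAAAGTCCA in 5 (0.26%, against 0.35%), NRF1 GCGCATGC in 4 (0.208%, against 0.375%) and ETS CCGGAAGT in 3 (0.156%, against 0.268%). All were counted on both strands in the same window. These matches are letters in a window and not binding sites.

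Base composition was close to that of the pool. The median GC content within 100 bp of the centre was 42.8% in the 8-library regions (quartiles 37.8% and 47.3%, range 24.4% to 73.1%). It was 42.8% over all regions and 59.2% in the regions of the 4 E2f3 libraries alone. A GC content of 60% or more was found in 13 members (0.677%, 0.361% to 1.16%). It was found in 0.401% of 7-library regions, 2.94% of all regions and 47.8% of regions of the 4 E2f3 libraries alone. A perfect tandem repeat of 24 bases or more was present in 68 members (3.54%, against 3.31% of all regions) and a G-quadruplex pattern in 20 (1.04%, against 2.48%).

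Few of the members on the reference chromosomes were multi-copy sequence, and those outside them were not assessed. In 20 of 1920 (1.04%, 0.637% to 1.60%) at least 50% of the 32-base words of the window occurred more than once in the assembly. The share was 0.801% (0.459% to 1.30%) in 7-library regions and 0.223% in all regions. It was 0 of 645 in regions of the 4 E2f3 libraries alone, which allows up to 0.57%. Windows in which at least 50% of 16-base words occurred 20 times or more made up 39 of the 1920 (2.03%), against 2.54% of all regions. The share with repeated 32-base words was above that of the pool with the full lists. With each list reduced to its highest-scored sites at the length of the shortest list it was 3 of 917 (0.327%, 0.0675% to 0.953%). This interval holds the pool's value from the full lists, and the pool at the reduced length was not counted. The share with frequent 16-base words was not above the pool. The assembly used carries no repeat masking, so no repeat class is given.

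The consensus was found in the sequence itself. On odd-numbered chromosomes and X, every 6-base word was counted in 1016 8-library regions and in 64856 regions of 1 library, within 100 bp of the centre. The word with the largest difference was TGTGCT with its reverse complement, present in 73.7% of the 8-library and 43.1% of the 1-library regions. TGTGCT was then extended over the 8-library regions of these chromosomes, aligned on the word. The extension ran in the 5′ direction only, up to the first base that failed a rule. The leading base had to stand at least 10 percentage points above its share 31 to 60 bases before the word's end. This gave CAGACGTGTGCT. A match is the longest run of bases, counted back from the last T, that is identical to the consensus and ends 20 to 120 bases before the centre. Runs that end at the same distances but point away from the centre were counted beside it, as a measure of what the base composition gives.

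On the even-numbered chromosomes, which had no part in finding the word, 762 of 904 8-library regions (84.3%, 81.8% to 86.6%) had a match of 6 bases or more pointing at the centre. Pointing away, 56 (6.19%, 4.71% to 7.97%) had one. For 8 bases or more the counts were 317 (35.1%) pointing at the centre and 2 (0.221%) pointing away. Over all chromosomes, 1581 of 1920 (82.3%, 80.6% to 84.0%) had a match of 6 or more pointing at the centre and 107 (5.57%) one pointing away, 629 (32.8%) had 8 or more, 197 (10.3%) had 10 or more, and 38 had all 12. The match was on the plus strand in 324 and on the minus strand in 305 of the 629 with 8 bases or more.

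**Figure D1:**
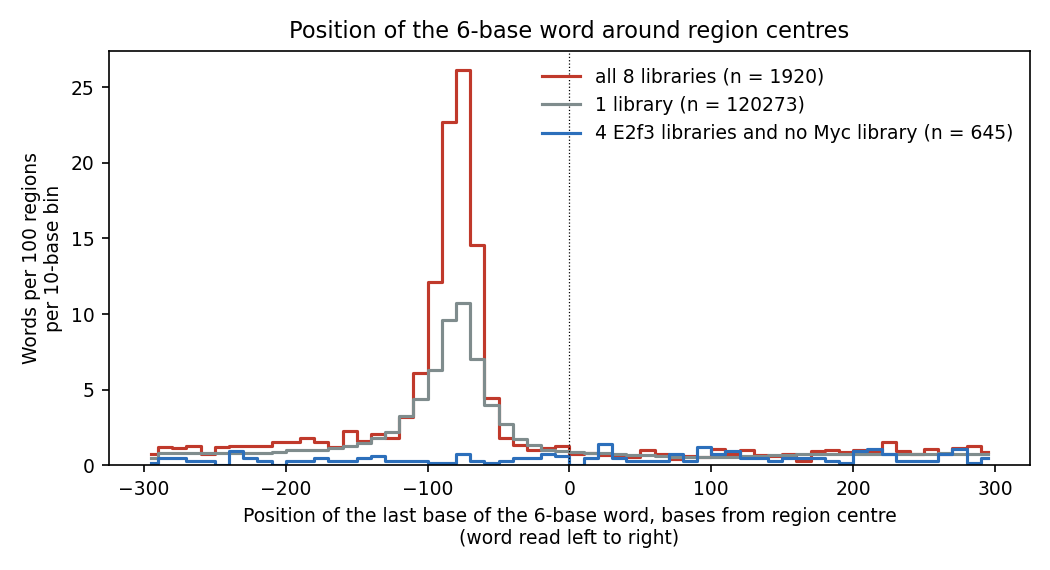
Number of TGTGCT words per 100 regions in 10-base bins, by the position of the word's last base relative to the region centre (x axis, bases), for the 8-library regions (red), regions of 1 library (grey) and regions of the 4 E2f3 libraries alone (blue). The 8-library regions have 26.1 words per 100 regions in the bin 70 to 80 bases before the centre, and the regions of the 4 E2f3 libraries alone show no such peak. Chromosomes used to find the word are included.

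The match was not particular to the 8-library regions, but its share grew with the number of libraries. The shares below are over all chromosomes, including those on which the word was chosen for its difference between 8-library and 1-library regions. They were not recomputed on the even-numbered chromosomes alone. How much of the growth comes from the choice of the word was not tested. All regions together had a match of 6 bases or more pointing at the centre in 48.9%, and one pointing away in 6.11%. The share pointing at the centre was 45.8% in regions of 1 library, 57.9% of 4, 74.4% of 6, 79.6% of 7 and 82.3% of 8, while the share pointing away stayed between 5.57% and 6.81% in every class. Regions of the 4 E2f3 libraries alone had 21 of 645 pointing at the centre (3.26%, 2.03% to 4.93%) and 41 pointing away (6.36%). Per list, the share of all sites with a match of 6 or more pointing at them was 53.2% in Rb KO crypt E2f3, 55.1% in Rb KO villus E2f3, 58.4% in wild type crypt E2f3 and 64.0% in wild type villus E2f3. For Myc it was 59.4% in Rb KO crypt, 76.5% in Rb KO villus, 51.6% in wild type crypt and 75.1% in wild type villus. Pointing away it was between 5.91% and 6.59% in all 8 lists. The match was thus present in the lists of both antibodies, both genotypes and both cell types.

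**Figure D2:**
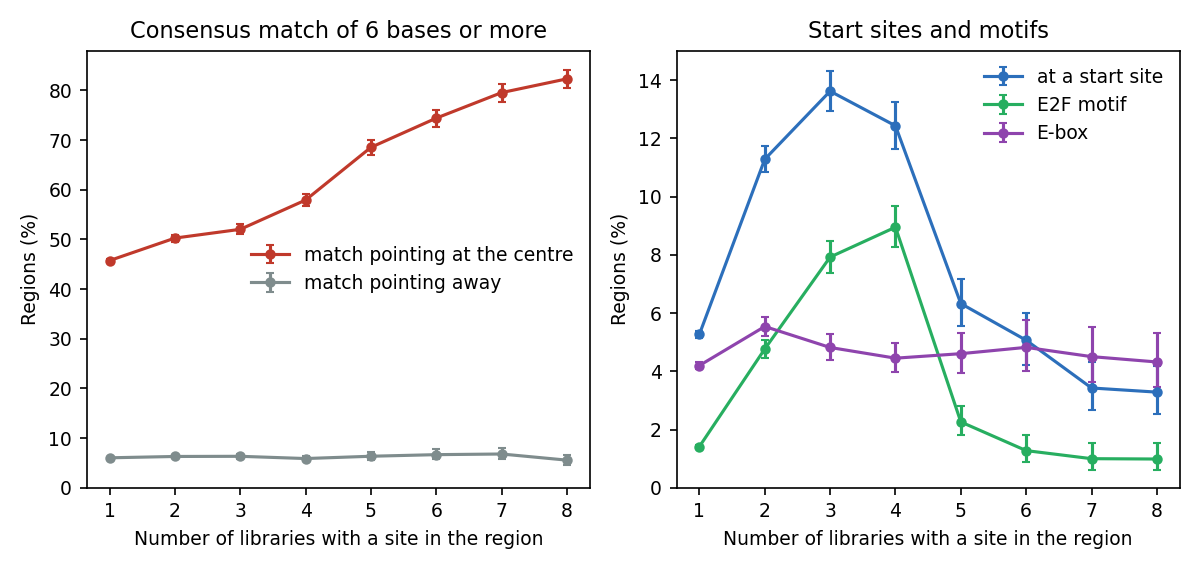
Share of regions (y axis, %) by the number of libraries with a site in the region (x axis), with exact 95% binomial intervals. Chromosomes used to find the word are included. Left, a consensus match of 6 bases or more pointing at the centre (red) grows to 82.3% at 8 libraries and one pointing away (grey) stays under 7%. Right, the shares at a protein-coding start site and with an E2F motif are highest at 3 and 4 libraries and fall to 3.29% and 0.99% at 8, and the E-box share stays between 4.20% and 5.54%.

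Longer matches went with more libraries, again counted over all chromosomes, including those used to find the word. The consensus was extended over 8-library regions only, and how much of the rise comes from this was not tested. Of the 80934 regions with a match of 6 or more, 1581 (1.95%, 1.86% to 2.05%) had all 8 libraries, against 339 of 84632 (0.401%, 0.359% to 0.445%) with a shorter match. The share with all 8 libraries was 4.62% at 8 matched bases, 6.89% at 9, 17.4% at 10, 27.5% at 11 and 26.8% at 12. The mean number of libraries per region was 1.47 below 6 matched bases, 2.56 at 8, 4.21 at 10 and 4.92 at 12.

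The next counts start from the genome and not from the regions, also with the chromosomes used to find the word included. For the 8-library regions they hold largely the same pairs of match and region, so they are not a separate observation. The assembly held 21354 places with a match of exactly 8 bases, 7509 of 9, 812 of 10, 348 of 11 and 181 of all 12. An 8-library region lay 20 to 120 bases after 1.20% of the places with 8 matched bases, 2.37% with 9, 11.6% with 10, 20.1% with 11 and 21.0% (15.3% to 27.7%) with 12. A region of any kind lay after 25.9%, 34.5%, 64.2%, 72.7% and 78.5% (71.7% to 84.2%) of them. Of the 181 full matches, the share followed by a site was 47.0% in the Rb KO crypt E2f3 list, 37.6% in Rb KO villus E2f3, 54.1% in wild type crypt E2f3 and 35.4% in wild type villus E2f3. In the Myc lists it was 64.6% in Rb KO crypt, 35.4% in Rb KO villus, 79.6% in wild type crypt and 43.6% in wild type villus. A region was counted when its centre, and a site when its own position, lay 20 to 120 bases after the place, so a place can have a site without a region. The order follows the list lengths in part, and the wild type crypt Myc list, with 159181 sites, had the highest share.

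**Figure D3:**
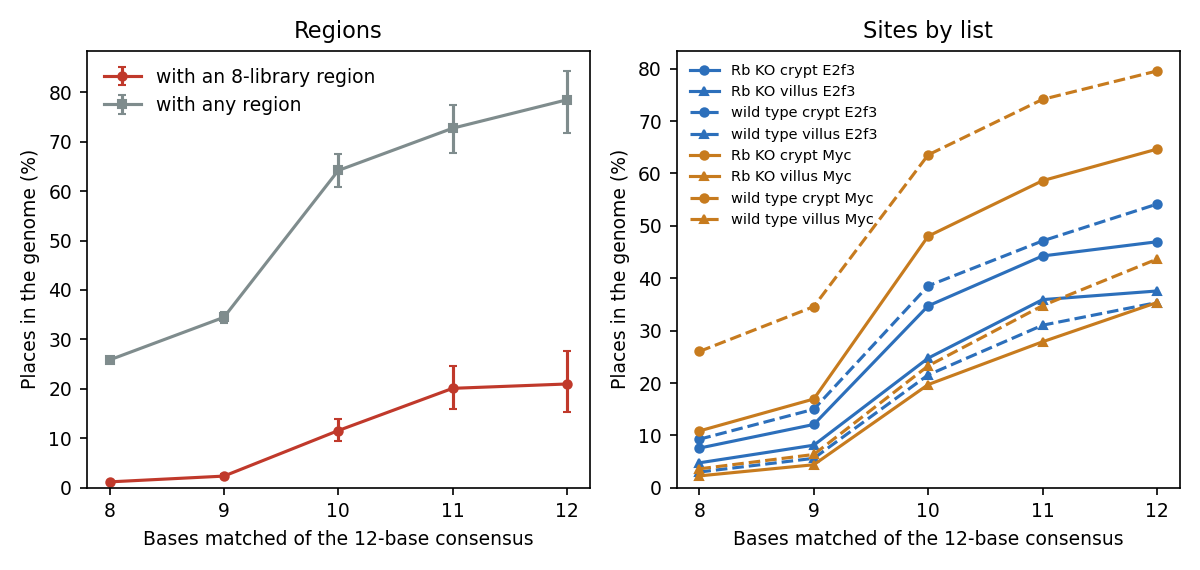
Places in the assembly by the number of bases matched of the 12-base consensus (x axis), and the share of them (y axis, %) followed within 20 to 120 bases by an 8-library region or any region (left, with exact 95% binomial intervals) and by a site of each list (right). All curves are higher at 12 matched bases than at 8, from 2.28% to 35.4% for the shortest list and from 1.20% to 21.0% for 8-library regions.

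As background, the 12 letters of the consensus also occur in a widely used Illumina sequencing adapter, the one that carries the index. The oligonucleotides used for these libraries are not listed in the sources used here, and their part in these regions was not tested.

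Bases next to the match also departed from the flanks. Over 689 aligned words of the even-numbered chromosomes, C made up 11.6% of the 20 bases after the word and A 32.1%. In the bases 31 to 60 before its end, C made up 18.6% and A 28.2%. Some bases ahead of the consensus departed too. G made up 38.9% at 16 bases before the word's end, against 24.18% in the same flank. T made up 39.48% at 13 bases before it, against 29.04%. At the first consensus base, C made up 30.04% and T 30.62%, so C did not lead there. The length of 12 came from the extension rule and does not bound the departure.

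The distance between the match and the best site differed between libraries. By definition a match ends 20 to 120 bases before the centre of a region and points at it, so that sites follow the match is set by the choice of these members, and the distances are a description. In the 629 members with 8 matched bases or more, the best site of the region lay at a median of 73 bases after the match in Rb KO crypt E2f3 (quartiles 60 and 85), 70 in Rb KO villus E2f3, 67 in wild type crypt E2f3 and 78 in wild type villus E2f3. For Myc it lay at 89 in Rb KO crypt (82 and 97), 84 in Rb KO villus, 75 in wild type crypt (71 and 81) and 82 in wild type villus. The Rb KO crypt Myc sites were the farthest and the wild type crypt E2f3 sites the nearest (quartiles 59 and 74), and the quartile ranges of these lists did not overlap.

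**Figure D4:**
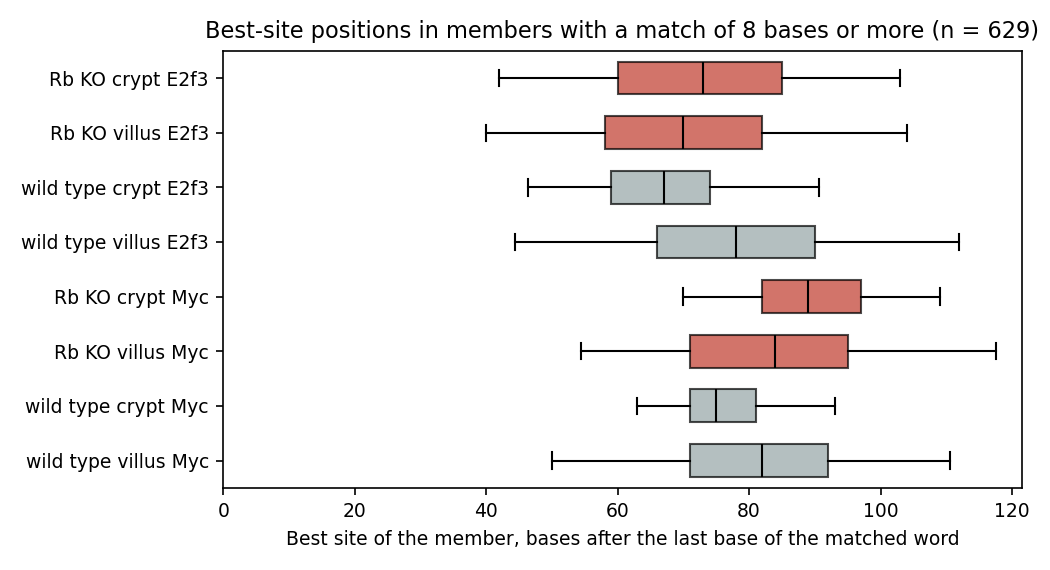
Distance of the best site of each library from the last base of the match (x axis, bases) in the 629 8-library regions with a match of 8 bases or more. Boxes are quartiles with the median, whiskers the 5th and 95th percentiles, red Rb KO and grey wild type, and all medians lie between 67 and 89 bases.

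Within a region the 8 lists placed their sites close together but seldom on the same base. The median span of an 8-library region was 44 bp (quartiles 33 and 61, highest 482), and 1533 (78.7%) had exactly 8 sites, 1 per library. Over the 28 pairs of libraries the median distance between best sites was 10 to 21 bp, and the share at the same base was 1.18% to 4.37%. Regions of 7 libraries also had a median span of 44 bp. By comparison the regions of the 4 E2f3 libraries alone had a median span of 1 bp, so that in the median region the 4 libraries named the same base. The regions of any 4 libraries had a median span of 34 bp. Spans over 8 and over 4 libraries rest on unlike numbers of sites.

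The 8-library regions stood high in most lists. The median score of their best site was 41.7 in Rb KO crypt E2f3 (list median 10.1), 18.9 in Rb KO villus E2f3 (7.21), 55.1 in wild type crypt E2f3 (10.7) and 15.5 in wild type villus E2f3 (8.52). In the Myc lists it was 52.3 in Rb KO crypt (9.67), 9.84 in Rb KO villus (7.14), 300.4 in wild type crypt (12.7) and 16.5 in wild type villus (8.31). As a percentile within the list the median was 89.7, 83.8, 93.1 and 75.1 for E2f3 and 94.8, 66.6, 98.9 and 78.5 for Myc, in the same order. The percentile was highest in the longest list and lowest in the shortest. A high rank was not particular to these regions. Taking for each region the median percentile over the lists with a site, the median was 87.4 in 8-library regions. It was 79.0 in 7-library, 69.4 in 6-library and 42.8 in all regions, and 89.6 in regions of the 4 E2f3 libraries alone. In wild type crypt Myc 874 members had the highest score of 999, which was 57.1% of that list's 1531 such sites, and in the other lists 6 to 18 members did.

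**Figure D5:**
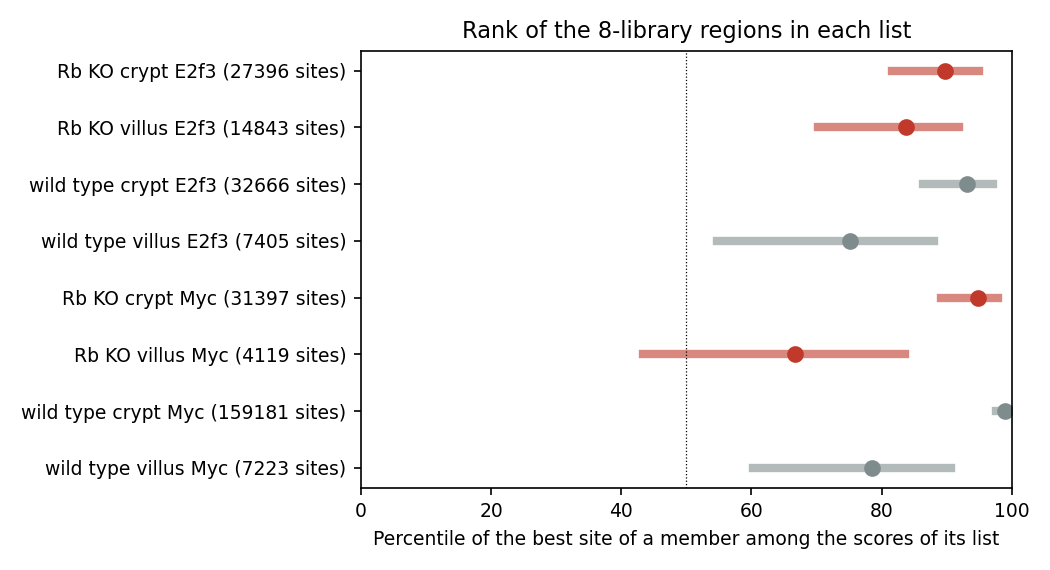
Percentile of the best site of an 8-library region among all scores of its list (x axis), with the number of sites in the list beside its name. Points are medians over 1947 regions, bars the quartiles, red Rb KO and grey wild type, and the medians run between 66.6 in Rb KO villus Myc and 98.9 in wild type crypt Myc.

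These regions also made up very different shares of the lists. They held 2045 of 27396 sites (7.46%) in Rb KO crypt E2f3, 2033 of 14843 (13.7%) in Rb KO villus E2f3, 2048 of 32666 (6.27%) in wild type crypt E2f3 and 1982 of 7405 (26.8%) in wild type villus E2f3. In the Myc lists they held 2002 of 31397 (6.38%) in Rb KO crypt, 2000 of 4119 (48.6%) in Rb KO villus, 2199 of 159181 (1.38%) in wild type crypt and 1980 of 7223 (27.4%) in wild type villus. The rule asks for at least 1 site of each list in every member, and members held 1980 to 2199 sites per list. The shares therefore follow the list lengths. Villus lists, which were shorter, held the larger shares for both antibodies and genotypes.

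The order of the members was partly shared between lists. Spearman's rho of their best scores, over 1947 regions and as a description only, ran between 0.33 and 0.80 over the 28 pairs of lists, with a median of 0.68. It was highest for Rb KO crypt E2f3 with wild type crypt E2f3 (0.80) and lowest for Rb KO villus Myc with wild type crypt Myc (0.33). Lists of different antibodies reached 0.77, for wild type villus E2f3 with wild type villus Myc. The points share the local sequence and its mappability, and the scores of wild type crypt Myc are tied at 999 in 874 members.

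The rank over all lists differed little between match lengths, and the scores in some lists differed more. The median over members of the median percentile was 86.6 for the 339 with a match under 6 bases, 87.5 for the 1581 with 6 or more and 89.8 for the 197 with 10 or more. In Rb KO crypt Myc the median score was 45.4 under 6 matched bases, 51.5 at 7, 56.4 at 9, 70.035 at 10 and 74.0 at 12, and in Rb KO villus Myc it was 9.55 under 6, 9.30 at 7, 14.5 at 10 and 14.2 at 12. In wild type villus E2f3 it was 16.5 under 6, 14.8 at 7, 20.4 at 10 and 14.8 at 12. The wild type crypt Myc median was 238.4 under 6, 999 at 7, 303.7 at 10 and 291.1 at 12, so it did not rise steadily with match length.

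Of the 339 without a match of 6 bases, some held the consensus with a mismatch. Allowing mismatches, 67 (19.8%, 15.7% to 24.4%) had 10 or more of 12 bases identical pointing at the centre and 2 (0.59%) pointing away. Others were multi-copy. Of the 20 members with repeated 32-base words, 18 were among these 339, and 2 of 20 repeated members had a match, against 1579 of 1900 (83.1%) of the rest. GC content was much the same, with a median of 43.8% without a match and 42.3% with one.

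The multi-copy group is represented by the highest-ranked of its members, near the start of chromosome 9 and close to the predicted gene Gm10106. It is shown without capitals because it held no match of 6 bases or more.
Gm10106 neighbourhood, chr9:3031893-3032013, plus strand: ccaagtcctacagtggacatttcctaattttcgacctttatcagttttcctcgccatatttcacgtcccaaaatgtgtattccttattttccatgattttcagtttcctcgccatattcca
Within 100 bp of the centre of this region, a window wider than the stretch shown, 74.1% of the 32-base words occurred more than once in the assembly. The region scored 999 in 7 lists and 13.02 in wild type crypt E2f3, and the best sites of all 8 libraries lay within 1 bp of each other.

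Of the 10 members with the highest median percentile, 1 had a match of 6 bases, and the share of their 32-base words that were repeated lay between 1.18% and 74.1%. A pair between genes near P4ha2 (collagen prolyl hydroxylase) on chromosome 11, at 53953636-53953663 and 53954069-53954107, scored 999 in all 8 lists. So did the regions at chr2:181665987-181666006, which had a match of 6, and at chr9:24346519-24346562, with Dpy19l1 as nearest gene. A pair in an intron of 4930468A15Rik on the X chromosome scored 999 in all lists except that the first had 312.3 in Rb KO villus Myc. The others were chr13:100560915-100560966, chr2:181653317-181653329, the Gm10106 region and chr5:147072602-147072911 in an intron of Cdk8, a kinase of the Mediator complex. The Cdk8 region had the widest spread of best sites of these, 306 bp. It lay 23 bp from a start of AC113316.1 and 29641 bp from the nearest start of Cdk8.

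Members with the most sites were on an unplaced contig (24 sites in 443 bp), in an intron of Dock2 on chromosome 11 (23 sites in 482 bp), near Axin2 on chromosome 11 (23 sites), near Gm14496 on chromosome 2 (23 sites) and near Zfp825 on chromosome 13 (22 sites, match of 7 bases, 68.8% repeated 32-base words). The region nearest to Axin2, a Wnt target and regulator, lay 68107 bp from its start. The smallest spread of best sites was 1 bp near Gtpbp4 on chromosome 13, near Gm10106 and in 2 regions on Un_random, and 2 bp in a further region there.

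Most members stood alone. Of 1947, 80 (4.11%, 3.27% to 5.09%) lay within 10 kb of another, against 4.31% of 7-library and 3.23% of 6-library regions, and 6.32% of regions of the 4 E2f3 libraries alone. Within 1 kb there were 20, and within 100 kb 372 (19.1%). The 80 fell into 35 clusters, 29 of them pairs. The largest had 5 members each, at chr9:3007058-3020464 (82.4% of 32-base words repeated in the median member) and on Un_random, where neighbours may lie on different contigs. Clusters of 3 lay at chr16:3349602-3351648 (78.2%), chr5:33069002-33071641 (0%), chrX:166427301-166433906 (33.5%) and on Un_random. None of the members in the 4 such clusters on reference chromosomes had a match of 6 bases. Within 10 kb of an assembly gap of 1 kb or more lay 13 of 1920 (0.677%, 0.361% to 1.16%), against 13 of 1997 7-library regions (0.651%) and 0.135% of all regions.

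Every autosome held members, at 0.684 to 1.03 per Mb of sequence, with the lowest density on chromosome 7 and the highest on chromosome 19. The X chromosome held 48, or 0.296 per Mb, and none was on Y or M. All regions were also sparser on X, at 34.4 per Mb against 61.9 to 76.8 on autosomes. Places with a match of 8 bases or more were at 5.37 per Mb on X, against 10.9 to 14.5 on autosomes.

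The 64 members at a gene start touched 64 protein-coding genes, 0.288% of 22238. None of the 64 held an E2F motif, 3 held an E-box and 3 had a GC content of 60% or more. Of the 1856 other members on the reference chromosomes these were 19, 80 and 10. An E2F motif was present in 0.99% of all members and 2.48% of all regions, so none in 64 is near the background. The E-box share over all regions was 4.43%. A match of 6 bases or more pointing at the centre was present in 45 (70.3%), against 1536 of 1856 (82.8%) of the other members, and 6 were multi-copy. The median GC content was 43.8%.

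The 20 with the highest median percentile include Gm10106, Gm10719, Gm10720 and Gm10715, predicted genes of the same multi-copy stretch of chromosome 9. Dctn6, a dynactin subunit, had a match to all 12 bases and its region lay on the start itself. It scored 85.2, 21.4, 76.7 and 27.7 in the Rb KO crypt, Rb KO villus, wild type crypt and wild type villus E2f3 lists. The Myc scores of Dctn6 were 104.9, 20, 999 and 34.9 in the same order. Odz4, a teneurin, had a match of 10 bases and Bbc3, which encodes the apoptosis factor Puma, one of 9. Pkn3 (a protein kinase), Myh13 (a myosin heavy chain), Eif4g2 (a translation factor), Insig2 (sterol regulation), Pacsin2 (endocytosis) and 1700040L02Rik had a match of 7 bases, and Kctd1 one of 6. Taco1, Smpx, Cep250, Mfap3l and Mon1b had a match of 5 or 4 bases. In 15 of the 16 genes outside the chromosome 9 stretch the wild type crypt Myc score was 999. These genes were chosen for their rank over all lists, with this list among them. Of all 1947 members, 874 had that score in it.

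None of the genes on the fixed lists that relate to the factors had an 8-library region at a start. This was 0 of 45 DNA replication genes, 0 of 13 E2F family and pocket protein genes, 0 of 29 mitosis genes, 0 of 26 ribosome biogenesis genes, 0 of 11 genes of the Myc network, 0 of 15 stem cell and crypt genes and 0 of 18 villus enterocyte genes. The regions of the 4 E2f3 libraries alone were at starts of 22 of the 45 DNA replication genes and 4 of the 13 E2F family and pocket protein genes, where they were at starts of 545 of all 22238 genes (2.45%). They were also at starts of 13 of 67 histone, 5 of 20 housekeeping, 4 of 26 ribosome biogenesis, 4 of 83 ribosomal protein, 12 of 370 zinc finger, 1 of 29 mitosis, 1 of 11 Myc network and 1 of 15 stem cell and crypt genes. The lists with 0 also included 20 housekeeping genes, 67 replication-dependent histones, 83 cytosolic ribosomal protein genes, 327 vomeronasal receptors and 370 zinc finger genes. Olfactory receptors had 2 of 1113, Olfr1444 and Olfr693. With 0.288% of all genes touched, a count of 0 in lists of this size is near the background.

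At the edge of the rule, the 3 members with 8 sites and the lowest median percentiles were on an unplaced contig (18.3), near 5330438I03Rik (21.5, match of 8 bases) and near Uhmk1 (28.7, match of 6 bases). Their scores were between 2.52 and 64.8. Just outside, the 3 regions of 7 libraries with the highest median percentiles were a pair near Ly6c2 on chromosome 15 and a region near Gm11167 on chromosome 9, which scored 151.3 to 999 in the 7 lists. Of the 2041 regions with 7 libraries, 1215 (59.5%) lacked the Rb KO villus Myc list, the shortest with 4119 sites, 361 (17.7%) wild type villus E2f3, 216 (10.6%) wild type villus Myc and 157 (7.69%) Rb KO villus E2f3. Each crypt list was lacking in 16 to 28.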

How the data were processed

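The deposited lists hold a 1-bp position and a score for each site. The meaning and scale of this score, and whether lists were normalized to each other, are not stated by the authors in what was used here. The file names point to GEM events overlapping a MACS2 peak, in merged data where duplicates were kept. Bowtie2 2.2.1, MACS2 2.0.10 and the build mm9 are named in the submitters' processing notes. Thresholds and read numbers are not given, so depth is unknown, and a longer list may come from a deeper library.

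Positions were taken to count from 0 and are given here plus 1. Regions were built by chaining positions at most 250 bp apart. Genes came from GENCODE M1, and sequence from the NCBIM37 assembly that mm9 is built on. GC, motifs, 32-base and 16-base words were counted within 100 bp of a region's centre. The consensus was found on odd-numbered chromosomes and X and counted on the others too. Python 3.11.15, NumPy 2.4.6, pandas 2.3.3 and SciPy 1.17.1 were used, and chaining and word matching were tested on simulated data.

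The rule, gene lists and motifs were chosen with earlier results of these data known, and the word search was added after seeing them. Named are the 20 start-site members and the 10 members of highest median percentile, 5 each with the most sites, smallest spread and densest clusters, and 3 each just inside and outside the rule. Of the start-site members, 1 is not reported here. The members with the best consensus matches, the Srsf1 region and the repeated region were added later. No group was tested against another.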

Additional observations from a re-analysis of the deposited data

How the results depend on the processing

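Of 93 values recomputed under alternatives, 71 stayed within the main value's counting interval (for the number of members, within 1.5 times it) and 22 moved. The number of members was 1947 and between 1524 and 1975 under 7 alternatives. It moved to 3988 for any 7 or more libraries, to 3162 without the Rb KO villus Myc list and to 917 when each list was reduced to the highest-scored sites at the length of the shortest. The share at a start site, 3.29%, moved with its window to 2.11% at 500 bp and 13.9% at 5 kb. The share at or above 60% GC, 0.677%, was 1.20% with 50 bp to each side, 0.208% with 250 bp and 0.218% at equal list length. The E-box share, 4.32%, was 1.41% with 50 bp and 8.13% with 250 bp to each side, and the E2F motif share, 0.99%, was 1.72% with 250 bp. The share with repeated 32-base words, 1.04%, was 0.327% at equal list length. The share within 10 kb of another member, 4.11%, was 1.03% at 1 kb and 19.1% at 100 kb. That share was also 6.70% for any 7 or more libraries, 5.32% without the wild type crypt Myc list, 3.13% without contigs, 2.72% with chaining at 1000 bp and 1.09% at equal list length. The share with a consensus match of 6 bases or more, 82.3%, was recomputed after seeing the data and was 79.6% with chaining at 500 bp, 73.5% at 1000 bp and 90.1% at equal list length. Wider windows and longer distances hold more bases by construction, and for the other changes the cause was not tested. A share in masked repeats was not run apart from the repeated 32-base words, since the assembly used is not masked. No paired analysis was possible because the shares are over regions pooled from all 8 libraries and come from no test, and groups share fewer than 2 replicate numbers. Depth is unknown and limits which regions every list can hold.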
